A study of Homo sapiens with 4 samples.

Results

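The mitotic machinery was examined in MCF10A, an immortalised, non-tumorigenic line of human mammary epithelium, through 47 genes of the spindle, its checkpoint, the kinetochore and the steps around them. The genes were chosen by name, as known parts of this machinery, but with earlier results of these data known. The motors named KIF were left out and the related motor CENPE kept. A probe set annotated to them alone was found for 45 of the 47, out of 22395 genes with such a probe set. The remaining genes, BUB1B (a checkpoint kinase) and CENPA (the centromeric histone), share their probe sets with the genes PAK6 and SLC35F6 in the annotation and were not analysed here. Each of 4 lines was a stable transfection of MCF10A: with LacZ, a bacterial enzyme gene used as the control, with Her2 (ERBB2, a receptor tyrosine kinase), with PIK3CA-H1047R (an activating variant of PI3-kinase alpha, the enzyme that passes receptor signals to AKT), or with Her2 and PIK3CA-H1047R. All lines grew untreated in SFIHE medium, and RNA of each was measured on 1 array. The purpose given in the labels was to find genes controlled by either introduced gene or by the pair. The promoter driving each introduced gene, and whether a line was 1 clone or a pool, were not given in the sources used here. With 1 array per line, no difference below has a replicate check, and none has a test, an SD or a p-value. Expression is given on the log2 scale, where 1 unit is 2-fold, and a gene was counted as higher or lower from a difference of 1.

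Mitosis separates copied chromosomes. Cyclin A and cyclin B with CDK1 drive cells into it, kinetochores built on the centromeres attach the chromosomes to spindle microtubules, and the spindle checkpoint holds back the anaphase-promoting complex until all are attached. Condensin compacts the chromosomes, the chromosomal passenger complex corrects faulty attachments, and a contractile ring then divides the cell. Transcripts for most of these proteins are made late in the cell cycle and are low in resting cells. Their promoters are known for an element called CHR (cell cycle genes homology region), whose core letters are TTTGAA in some genes and TTTAAA in others, and for CCAAT boxes bound by NF-Y. The repressive DREAM complex acts at CHR elements in resting cells, and the activators B-MYB and FOXM1 act there with the same MuvB core in dividing cells.

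These letters were looked for in RefSeq promoter windows of GRCh38.p14, from 250 bases before to 50 bases after a gene's start. The 4 promoters shown are those of the entry and anaphase genes with the highest mean value among those whose window held CHR letters. The order of these genes across the arrays was not used in choosing them. Each is the 250 bases before the start, 5′ to 3′, with the CHR letters and CCAAT in capitals; where TTTGAA lies on the other strand it is read here as TTCAAA.
CDC20 (chr1:43358731-43358980, plus strand): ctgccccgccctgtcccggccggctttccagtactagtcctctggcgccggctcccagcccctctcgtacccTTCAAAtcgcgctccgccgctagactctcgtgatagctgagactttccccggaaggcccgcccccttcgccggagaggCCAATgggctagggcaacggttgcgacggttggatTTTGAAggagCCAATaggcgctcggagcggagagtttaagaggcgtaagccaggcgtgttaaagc
PLK1 (chr16:23678639-23678888, plus strand): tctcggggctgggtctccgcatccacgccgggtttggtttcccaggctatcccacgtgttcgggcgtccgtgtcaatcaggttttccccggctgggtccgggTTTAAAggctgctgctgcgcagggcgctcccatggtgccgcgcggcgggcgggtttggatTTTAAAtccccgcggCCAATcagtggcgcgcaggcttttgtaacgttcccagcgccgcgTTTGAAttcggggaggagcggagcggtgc
CCNB1 (chr5:69166900-69167149, plus strand): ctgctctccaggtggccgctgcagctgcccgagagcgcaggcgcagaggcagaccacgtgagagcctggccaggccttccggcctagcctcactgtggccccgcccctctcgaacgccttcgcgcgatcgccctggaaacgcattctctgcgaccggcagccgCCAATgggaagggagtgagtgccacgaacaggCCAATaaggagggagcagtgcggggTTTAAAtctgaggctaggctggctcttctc
CCNB2 (chr15:59104896-59105145, plus strand): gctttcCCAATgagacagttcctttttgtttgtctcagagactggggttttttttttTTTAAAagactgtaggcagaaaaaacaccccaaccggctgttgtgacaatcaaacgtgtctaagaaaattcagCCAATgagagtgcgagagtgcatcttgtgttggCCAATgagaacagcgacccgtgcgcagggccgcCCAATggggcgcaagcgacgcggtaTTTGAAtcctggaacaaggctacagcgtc
In CDC20, TTTGAA ended 59 bases before the start, with CCAAT 50 and 95 bases before it, and TTCAAA 172 bases before it. PLK1 had TTTGAA 23 bases before the start, TTTAAA at 82 and 142 bases and CCAAT at 68 bases. CCNB1 had TTTAAA 24 bases before the start and CCAAT at 50 and 82 bases. CCNB2 had TTTGAA 23 bases before the start, TTTAAA at 187 bases, and CCAAT at 49, 82, 115 and 239 bases. No match shared a base with another in these windows.

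Promoter windows were found for 35 of the 45 genes, and the comparison is with all 27305 genes that have one. TTTGAA, searched on both strands, was in the windows of 25 of the 35 (71.4%), against 18.2% of all genes. TTTAAA, which reads the same on both strands, was in 10 (28.6%), against 14.5%. Either of these was in 29 (82.9%), against 27.9%, and CCAAT, searched on both strands, was in 26 (74.3%), against 39.7%. Windows that held CHR letters and CCAAT together belonged to 21 genes (60%), against 11.2%, and at least 2 CCAAT matches were in 18 (51.4%), against 12.9%. A match of letters is a description and shows no binding. The genes FOXM1, AURKA, PBK, TTK, KNTC1, BIRC5, TPX2, ESCO2, UBE2C and RACGAP1 had no window in the table used.

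The labels were checked first. The probe set that reads ERBB2 (also annotated to the microRNA gene MIR4728 inside it) had values of 5.96 on the LacZ array, 4.29 on the Her2-labelled array, 8.48 on the PIK3CA-labelled array and 7.39 on the array labelled with both. This goes against the labels of the arrays with a single introduced gene, and PIK3CA itself was not analysed here, so arrays are named below only by what they are labelled. Medians over the 53617 probe sets lay between 1.13 and 1.17. Of the epithelial markers, 9 of 11 were measured. KRT5 was between 7.08 and 7.52 on all 4 arrays, whereas CDH1 (E-cadherin) was 9.34, 8.94, 9.13 and 5.07, in the same array order. KRT14 had 1.47, 1.80, 2.24 and 3.43. The summed linear level of these markers was 2625, 1944, 3582 and 849. Of the fibroblast markers, 8 of 10 were measured, with summed levels of 45.6, 407, 55.0 and 381. The matrix gene DPT had 3.41, 8.38, 3.69 and 7.86, while COL1A2 and PDGFRB were near background on all 4 arrays. So were 3 of 4 leukocyte markers (PTPRC, CD3E and ITGAM; CD14 had 2.95, 3.24, 2.14 and 1.98) and 2 of 3 endothelial markers (VWF and CDH5; KDR had 3.83, 3.57, 2.03 and 4.81). Summed levels were 8.63 to 14.4 for the leukocyte and 7.96 to 31.0 for the endothelial list. CDH1 was thus lowest, and the matrix genes LUM (0.78, 0.63, 0.52 and 6.26) and DCN (0.73, 0.57, 1.15 and 5.06) highest, on the array where the mitotic genes were highest. Between both and LacZ, 5 of 9 epithelial markers were at least 2-fold lower and 1, KRT14, higher, from a LacZ value near background. Of 8 fibroblast markers, 3 were higher and 0 lower. Over all genes, 6.3% were higher and 4.27% lower. COL1A1 and THY1 were lowest on the array labelled with both, and DPT and FAP were highest on the Her2-labelled array. The part of these shifts in the results below was not tested.

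The mitotic genes were low on the arrays labelled LacZ and Her2, intermediate on the PIK3CA-labelled array and highest on the array labelled with both. The median of the 45 values was 2.22 for LacZ, 2.18 for the Her2-labelled array, 3.92 for the PIK3CA-labelled array and 6.29 for the array labelled with both. Near background means at or under the value below which 95% of 358 olfactory receptor genes lay, which was 1.59 to 1.72 by array. By this measure 16, 16, 3 and 1 of the 45 genes were near background in that order of arrays, and 24 were above it on every array. The order with both highest, mutant PIK3CA next and the other arrays below was found in 42 of 45 genes (93.3%) and in 9.53% of all genes. The 3 exceptions were KNTC1, PTTG1 and RACGAP1. In bulk RNA, a larger share of dividing cells and more of these transcripts per cell cannot be told apart.

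**Figure D1:**
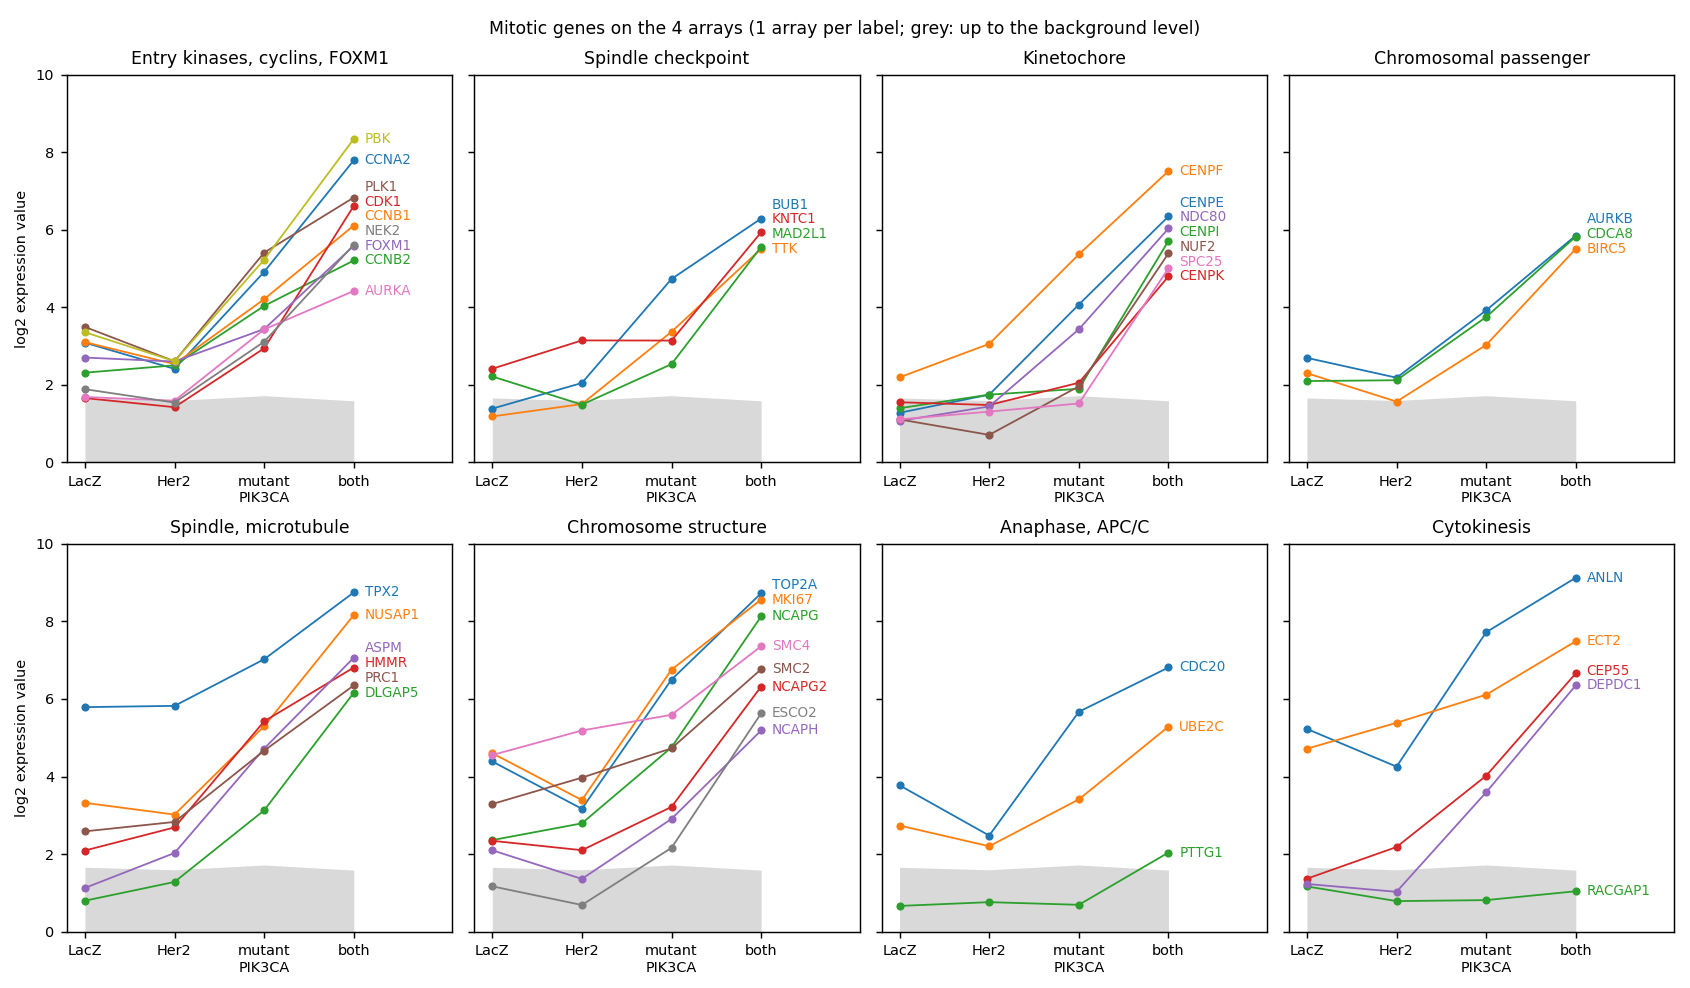
Deposited log2 expression values (y axis, 1 array per label) of the 45 genes on the arrays labelled LacZ, Her2, mutant PIK3CA and both (x axis), in a panel for each role. Points are single array values, lines join the values of a gene, and grey marks values up to the background level of 1.59 to 1.72; 44 genes have their highest point on the array labelled with both, and RACGAP1 stays within the grey.

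On the array labelled with both, 44 of 45 genes were at least 2-fold higher than on the LacZ array and 0 lower, where 6.3% of all genes were higher and 4.27% lower. The median difference was 3.90, against -0.03 over all genes. Among the 24 genes above background on every array, the widest difference was 5.77, in NCAPG, and 43 of the 45 were among the 224 genes (1%) with the highest differences of all. On the PIK3CA-labelled array, 31 genes were at least 2-fold higher than on the LacZ array and 0 lower, against 2.71% and 1.91% of all genes, with a median of 1.65. Between Her2-labelled and LacZ arrays, 0 were higher and 3 lower, against 1.92% and 1.75% of all genes, and the median was -0.10. The direction of both against LacZ depended on scaling for some genes: with cyclic loess over only the genes at 5 or more on some array, 28 of the 41 genes left were at least 2-fold higher and 1 lower (10.9% and 12.3% of all genes so scaled), and UBE2C, BIRC5, MAD2L1, ESCO2, NCAPH, NUF2 and SPC25 turned below 0. It kept its sign for all called genes under quantile or cyclic loess scaling of all genes. The scaling of only the genes at 5 or more was chosen after seeing the data. Its filter keeps a gene that is low on some arrays through the array where it is high.

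Below, the 4 values of a gene are always in the order of the labels LacZ, Her2, mutant PIK3CA and both. Among the 9 genes grouped here under entry into mitosis, 8 were higher on the PIK3CA-labelled array than on the LacZ array (median 1.72). All 9 were higher on the array labelled with both (median 3.34). CDK1, the kinase at the centre of mitotic entry, had values of 1.66, 1.42, 2.94 and 6.62. Its cyclin partner CCNA2 (cyclin A2) had 3.09, 2.41, 4.91 and 7.79, and CCNB1 (cyclin B1) had 3.10, 2.53, 4.21 and 6.11. For these 3 genes the array labelled with both was above the LacZ array by 4.96, 4.70 and 3.01, and CDK1 was near background on the LacZ array and the Her2-labelled array. CCNB2 (cyclin B2) had 2.31, 2.50, 4.04 and 5.21, the only gene of the 9 that was higher on the Her2-labelled than on the LacZ array. PLK1, the polo-like kinase of entry and spindle assembly, had 3.49, 2.61, 5.41 and 6.83. PBK, a mitotic kinase, had 3.35, 2.61, 5.23 and 8.34 and differed by 4.99 between both and LacZ.

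FOXM1, the transcription factor of late cell cycle genes, had values of 2.70, 2.60, 3.44 and 5.59. It was the gene of the entry group under 2-fold between the arrays labelled mutant PIK3CA and LacZ, at 0.74, and it differed by 2.88 between both and LacZ. AURKA, the kinase of centrosomes and spindle poles, had 1.69, 1.59, 3.43 and 4.42. NEK2, a kinase of centrosome separation, had 1.89, 1.54, 3.11 and 5.61. AURKA showed the smallest difference of the group between both and LacZ, 2.73, and was the only gene counted higher on the PIK3CA-labelled array (1.74) that was just short of 2-fold from there to both (0.99).

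All 4 checkpoint genes were at least 2-fold higher with both labels than with LacZ (median 3.92), and 2 of them on the PIK3CA-labelled array. BUB1, a checkpoint kinase at kinetochores, had values of 1.39, 2.05, 4.73 and 6.29. TTK (MPS1), the kinase that starts checkpoint signalling, had 1.18, 1.503, 3.37 and 5.51. These are the 2 that already differed on the PIK3CA-labelled array, by 3.34 and 2.18. MAD2L1, which holds CDC20 inactive, had 2.22, 1.49, 2.53 and 5.56. KNTC1, a subunit of the RZZ complex that brings checkpoint proteins to kinetochores, had 2.41, 3.14, 3.14 and 5.93. Both thus stood apart from the LacZ array mainly on the array labelled with both, by 3.34 and 3.52, although MAD2L1 was at -0.27 there under cyclic loess of the genes at 5 or more. BUB1 and TTK were near background on the LacZ array, and with their values raised to that level the differences of both against LacZ were at least 4.63 and 3.85.

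Of 7 kinetochore genes, 3 were at least 2-fold higher on the PIK3CA-labelled array than on the LacZ array. CENPF, a large outer kinetochore protein, had values of 2.19, 3.06, 5.36 and 7.51. CENPE, the motor that moves chromosomes to the spindle equator, had 1.28, 1.75, 4.07 and 6.34. NDC80, which grips microtubule ends, had 1.07, 1.44, 3.43 and 6.03. These were the 3 genes, with differences of 3.17, 2.79 and 2.36. NUF2, the direct partner of NDC80 in the same complex, had 1.11, 0.71, 1.96 and 5.39, and SPC25, from the other end of that complex, had 1.11, 1.31, 1.52 and 5.00. CENPI and CENPK belong to the inner kinetochore network on which the outer kinetochore is built. CENPI had 1.40, 1.75, 1.90 and 5.71, and CENPK had 1.55, 1.48, 2.05 and 4.80. For NUF2, SPC25, CENPI and CENPK the difference between mutant PIK3CA and LacZ was 0.85, 0.41, 0.50 and 0.50.

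All 7 kinetochore genes were at least 2-fold higher with both labels than with LacZ, with a median of 4.31. On the LacZ array, 6 of the 7 were near background, all except CENPF. Raised to that level, the differences of both against LacZ were at least 4.68 for CENPE, 4.37 for NDC80, 4.05 for CENPI, 3.73 for NUF2, 3.34 for SPC25 and 3.13 for CENPK. Under cyclic loess of the genes at 5 or more, NUF2 and SPC25 turned to -0.74 and -1.25.

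The chromosomal passenger complex pairs the kinase AURKB with BIRC5 (survivin) and CDCA8 (borealin), which place it at centromeres. AURKB had values of 2.69, 2.18, 3.92 and 5.85. CDCA8 had 2.10, 2.12, 3.75 and 5.82, and BIRC5 had 2.30, 1.57, 3.03 and 5.51. All 3 were at least 2-fold higher with both labels than with LacZ (3.15, 3.73 and 3.21, in the order AURKB, CDCA8, BIRC5), with BIRC5 at -0.082 under cyclic loess of the genes at 5 or more. For PIK3CA-labelled against LacZ, AURKB (1.23) and CDCA8 (1.65) were counted and BIRC5 (0.73) was not.

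The 6 genes of the spindle and its microtubules were all at least 2-fold higher on the PIK3CA-labelled array than on the LacZ array, with a median of 2.21. ASPM, a spindle pole protein, had values of 1.13, 2.03, 4.72 and 7.06. HMMR, which links the spindle to its poles, had 2.09, 2.69, 5.42 and 6.81. DLGAP5 (HURP), which stabilises kinetochore microtubules, had 0.80, 1.28, 3.13 and 6.16. ASPM and DLGAP5 were near background on the LacZ array, and with that value raised ASPM differed from it by at least 3.06 for mutant PIK3CA and 5.40 for both, and DLGAP5 by at least 1.47 and 4.50. HMMR, above background throughout, differed by 3.33 and 4.72. NUSAP1, a microtubule-bundling protein, had 3.32, 3.02, 5.30 and 8.16. PRC1, which crosslinks the spindle midzone, had 2.59, 2.83, 4.67 and 6.35. TPX2, which activates AURKA and promotes spindle assembly, had 5.79, 5.82, 7.02 and 8.75 and showed the smallest differences of the group, 1.24 for mutant PIK3CA and 2.96 for both against LacZ. The median of the 6 genes for both against LacZ was 4.78.

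Among the 8 genes of chromosome structure, 5 were at least 2-fold higher on the PIK3CA-labelled array and all 8 with both labels than with LacZ (medians 1.24 and 3.97). TOP2A, the topoisomerase that untangles sister chromatids, had values of 4.39, 3.17, 6.50 and 8.73. MKI67 (Ki-67), which coats mitotic chromosomes and marks dividing cells, had 4.60, 3.39, 6.76 and 8.56. Both genes were also at least 2-fold lower on the Her2-labelled array than on LacZ. NCAPG, a condensin I subunit, had 2.36, 2.79, 4.75 and 8.13, and its difference of 5.77 between both and LacZ was the widest of the 45 genes with near-background values raised. NCAPH, also of condensin I, had 2.10, 1.36, 2.91 and 5.19. NCAPG2, of condensin II, had 2.34, 2.10, 3.22 and 6.32. The ATPase subunits that both condensins share are SMC2 and SMC4. SMC2 had 3.29, 3.97, 4.73 and 6.77, and SMC4 had 4.55, 5.19, 5.59 and 7.36, with differences of 3.47 and 2.80 between both and LacZ. ESCO2, the acetyltransferase that locks cohesin on sister chromatids, had 1.17, 0.69, 2.16 and 5.63, a difference of at least 3.97 between both and LacZ with the near-background LacZ value raised. Under cyclic loess of the genes at 5 or more, NCAPH and ESCO2 turned to -0.64 and -0.30 for both against LacZ.

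The anaphase group comprised 3 genes that act on the release of sister chromatids. CDC20, the activator of the anaphase-promoting complex, had values of 3.77, 2.48, 5.67 and 6.81. UBE2C, the ubiquitin-conjugating enzyme of that complex, had 2.74, 2.20, 3.41 and 5.29. PTTG1 (securin), the inhibitor of the cohesin-cutting enzyme, had 0.66, 0.76, 0.69 and 2.04. All 3 were at least 2-fold higher with both labels than with LacZ (3.04, 2.55 and 1.38), with UBE2C at -0.11 under cyclic loess of the genes at 5 or more. PTTG1 was near background on the other 3 arrays, and with the LacZ value raised its difference was at least 0.38, short of 2-fold.

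Of 5 genes grouped here under cytokinesis, 4 were at least 2-fold higher on the PIK3CA-labelled array and with both labels than with LacZ. ANLN (anillin), which organises the contractile ring, had values of 5.23, 4.25, 7.72 and 9.13. ECT2, which activates the GTPase RhoA at the cell equator, had 4.72, 5.39, 6.11 and 7.49. CEP55, which recruits the machinery of the final cut, had 1.37, 2.18, 4.02 and 6.66. The first 2 differed by 3.90 and 2.77 between both and LacZ. DEPDC1 had 1.23, 1.03, 3.59 and 6.35. CEP55 and DEPDC1 were near background on the LacZ array, and with that value raised they differed by at least 5.00 and 4.69. RACGAP1, the centralspindlin subunit that binds ECT2, had 1.17, 0.79, 0.81 and 1.04, near background on all 4 arrays, so its probe set gave no measure of a difference.

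**Figure D2:**
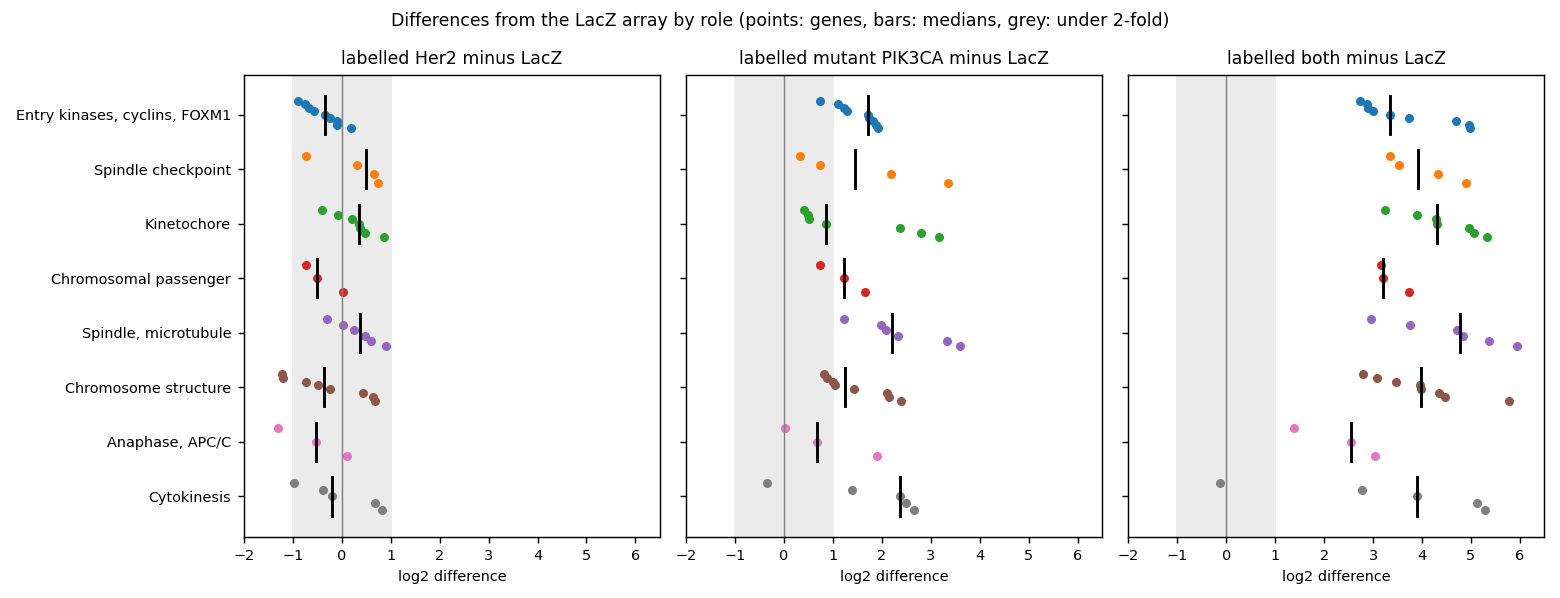
Log2 differences from the LacZ array (x axis) of the 45 genes by role (y axis) for the arrays labelled Her2, mutant PIK3CA and both, with points for genes, bars for medians and grey for differences under 2-fold. The Her2 panel centres near 0 (median -0.10), the mutant PIK3CA panel at 1.65 with all spindle genes beyond the grey, and the panel for both at 3.90 with only RACGAP1 inside it; values are as deposited, and 7 genes of the last panel turn below 0 under cyclic loess of the genes at 5 or more.

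Between the Her2-labelled and LacZ arrays the median of these genes was near 0 (-0.10), with differences in both directions. As deposited, 21 were above 0 and 24 below, 11 of the 45 being near background on both arrays. With near-background values raised, 16 were above 0 and 29 below, the genes near background on both arrays then taking -0.06. The 3 genes at least 2-fold lower were CDC20 (-1.29), TOP2A (-1.22) and MKI67 (-1.21), followed by ANLN (-0.97) and PLK1 (-0.89), just inside 2-fold. At the other end, with near-background values raised, were CENPF (0.86) and KNTC1 (0.73). The medians of the roles were below 0 for entry (-0.35), the passenger complex (-0.51), anaphase (-0.53), chromosome structure (-0.36) and cytokinesis (-0.20). They were above 0 for the checkpoint (0.49), kinetochores (0.35) and the spindle (0.36). With near-background values raised, the last 3 came to 0.16, -0.06 and 0.14, so that the kinetochore median turned sign. Raised in the same way, entry came to -0.29, the passenger complex to -0.51, anaphase to -0.53, chromosome structure to -0.15 and cytokinesis to -0.06. The raised kinetochore and cytokinesis medians are the value taken by genes near background on both arrays. From a difference of 1.5-fold, 9 of the 45 genes were higher and 10 lower, both larger shares than the 7.48% and 8.13% of all genes. At 2-fold, 6.67% of the 45 were lower, against 1.75% of all genes, and 0 higher, against 1.92%.

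Between the arrays labelled with both and with mutant PIK3CA, which share the PIK3CA label, 43 of the 45 genes were at least 2-fold higher with both and 0 lower, against 5.09% and 3.46% of all genes. The median was 2.23, and differences ran from 0.23 in RACGAP1 to 3.81 in CENPI, with CDK1 at 3.67 and ESCO2 at 3.47. This too depended on scaling: with cyclic loess of the genes at 5 or more, 16 of 41 were at least 2-fold higher and 0 lower (7.97% and 9.52% of all genes so scaled, median 0.77), and 11 of those counted turned below 0, among them TTK (-0.76), CCNB2 (-0.71) and NCAPH (-0.62). Against the Her2-labelled array, 44 genes were at least 2-fold higher with both and 0 lower, against 4.38% and 2.63% of all genes, with a median of 4.07 and the widest difference, 5.73, in PBK. With that cyclic loess, 28 of 41 were higher and 1 lower (6.71% and 7.85% of all genes so scaled), and NUF2, SPC25 and CENPI turned below 0. Compared directly, 35 were at least 2-fold higher and 0 lower on the PIK3CA-labelled than on the Her2-labelled array, against 2.95% and 2.55% of all genes, with a median of 1.67.

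**Figure D3:**
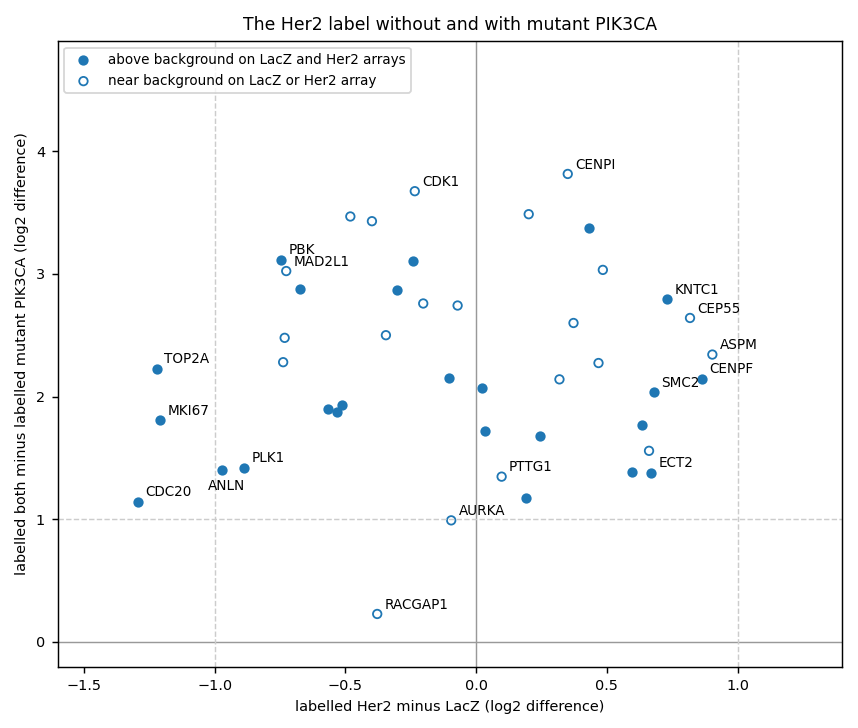
For each of the 45 genes, the log2 difference of the Her2-labelled array from the LacZ array (x axis) against that of both-labelled from PIK3CA-labelled (y axis), with open points for genes near background on the LacZ array or the Her2-labelled array and dashed lines at 2-fold. Points spread on both sides of 0 along x, from -1.29 in CDC20 to 0.90 in ASPM (open point, near background on LacZ), and lie above 0 along y as deposited, from 0.23 in RACGAP1 to 3.81 in CENPI; under cyclic loess of the genes at 5 or more, 11 turn below 0 along y.

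The log2 difference between both and LacZ can be split at the PIK3CA-labelled array. The part already present there had a median of 41.4% over the 44 genes at least 2-fold higher with both. Over the 24 genes above background on every array the median was 41.6%, and the part ran from 20.7% in KNTC1 to 70.6% in HMMR. The step from LacZ to mutant PIK3CA was the larger in 15 of 45 genes and the step from there to both in 30. This turned under cyclic loess of the genes at 5 or more, where the first step was the larger in 24 of 41 genes and the second in 17, with medians of 1.35 and 0.77. As deposited, both steps reached 2-fold in 30 genes, the second alone in 13, the first alone in AURKA, and neither in RACGAP1.

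Departure from additivity was computed as the value with both, minus each single-gene value, plus the LacZ value, and is 0 where the log2 differences of the single-gene arrays add up. It was at least 1 in 40 of the 45 genes and at most -1 in 0, against 5.72% and 4.5% of all genes. The median was 2.41, against -0.00 over all genes. With near-background values raised, PBK was highest at 3.86, followed by CDK1 at 3.74, CENPI at 3.73 and MAD2L1 at 3.64. Of the genes above background on every array, CCNB2 (0.98), HMMR (0.79) and ECT2 (0.71) were below 1. BUB1 (0.90) and RACGAP1 (0.61) were below 1 as deposited, and came to 1.17 and -0.07 with values raised. With cyclic loess of the genes at 5 or more, 16 of 41 were at 1 or above and 0 at -1 or below (8.06% and 8.92% of all genes so scaled, median 0.61), and TTK (-0.93), SPC25 (-0.55), NDC80 (-0.36), DLGAP5 (-0.28) and CENPE (-0.20) turned below 0. Exchanging the labels of the 2 single-gene arrays leaves this quantity as it is.

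The median difference between both and LacZ was 3.96 in the 29 genes with CHR letters in the promoter window and 4.02 in the 6 genes with a window but without such letters. From LacZ to mutant PIK3CA the medians were 1.92 with and 1.23 without the letters, and from there to both 2.23 and 2.62. With 6 genes in the second group, these differences were not tested. The MuvB, E2F and NF-Y regulators that act at these elements were given by a list of 14 genes, of which 13 were measured. Between both and LacZ, 3 were at least 2-fold higher and 0 lower, against 6.3% and 4.27% of all genes, with a median of 0.36. They were MYBL2 (B-MYB) at 3.61, RBL1 (p107) at 2.56 and LIN9, of the MuvB core, at 1.32. RBL2 (p130) had the smallest difference, 0.22. On the PIK3CA-labelled array, 1 of the 13 was at least 2-fold higher than on the LacZ array, against 2.71% of all genes. It was MYBL2, which had values of 3.02, 2.70, 4.87 and 6.63.

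Of 92 further mitotic genes outside the 47, 84 were measured. On the array labelled with both, 61 were at least 2-fold higher than on the LacZ array and 0 lower (median 1.55). Over all genes these shares were 6.3% and 4.27%. On the PIK3CA-labelled array 11 were higher and 0 lower (median 0.41), against 2.71% and 1.91% of all genes. The medians of 1.55 and 0.41 lie below the 3.90 and 1.65 of the 45 genes. All these lists were chosen with earlier results of these data known. Of 22 other kinetochore genes, 20 were higher with both (median 2.53), with KNL1, the scaffold for checkpoint proteins, at 4.42, SKA1 at 4.35, HJURP, which deposits CENPA, at 4.24, and CENPT at 0.19. Of 18 other checkpoint and cohesion genes, 13 were higher (median 1.42), with SGO1 (shugoshin, the protector of cohesin) at 3.79, ZWILCH, a partner of KNTC1, at 2.76, SPDL1 at 2.34 and MAD1L1 at -0.48. Of 24 other genes of entry and exit, 13 were higher (median 1.22), with CDCA2 at 3.96, FBXO5 at 3.17, PLK4, the kinase of centriole copying, at 3.05, and ANAPC1, a subunit of the anaphase-promoting complex, at 0.03. Of 20 other spindle and cytokinesis genes, 15 were higher (median 1.66), with SHCBP1 at 4.71, CKAP2L at 4.13, STIL at 3.79 and TUBG1 (gamma-tubulin) at -0.01. On the LacZ array 14 of the 84 were near background, among them SKA1 (1.32), FBXO5 (1.43), PLK4 (0.63) and SHCBP1 (1.34). Their differences, and the ranking by which genes were named, are as deposited with no value raised.

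The medians of 12 mitotic kinesins outside the 47 lay near those of the 45 genes at both steps, and the median of DNA replication genes lay below at the first. All 12 kinesins were at least 2-fold higher with both labels than with LacZ (median 3.94), led by KIF20A at 5.78, KIF14 at 4.96 and KIF20B at 4.42, with KIF18B at 1.20. At the first step, to the PIK3CA-labelled array, 8 of the 12 were (median 1.64). On the LacZ array 5 of the 12 were near background, KIF20A (1.40) and KIF14 (1.24) among them. Of 29 genes of S phase, 26 were higher by at least 2-fold with both than with LacZ (median 1.90), led by TYMS (thymidylate synthase) at 5.31, CLSPN at 4.36 and CCNE2 (cyclin E2) at 4.29, with the polymerase POLE at 0.18. CLSPN (1.32) and CCNE2 (0.88) were among 5 of the 29 near background on the LacZ array. The differences of both lists are as deposited, with no value raised. At that first step 2 of the 29 were at least 2-fold higher and the median was 0.22, beside 31 of 45 and 1.65 for the spindle, checkpoint and kinetochore genes. From there to both, 27 of the 29 were higher, with a median of 1.92 beside 2.23. No test of this difference between the lists was made. At the first step the 84 further mitotic genes, with 11 higher and a median of 0.41, also lay below the 45 genes. Over all genes, 6.3% were at least 2-fold higher with both than with LacZ. The shares were 2.71% at the first step and 5.09% from there to both. Of 8 measured housekeeping genes, 2 were at least 2-fold higher with both than on the LacZ array, with a median of 0.47. For the regulators named above it was 3 of 13, with a median of 0.36. The housekeeping gene with the smallest difference, ACTB, had 3.11, 2.55, 3.72 and 3.17, where the highest values of the arrays were 12.1 to 12.4. Whether its probe set measures the main ACTB transcript was not tested.

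**Figure D4:**
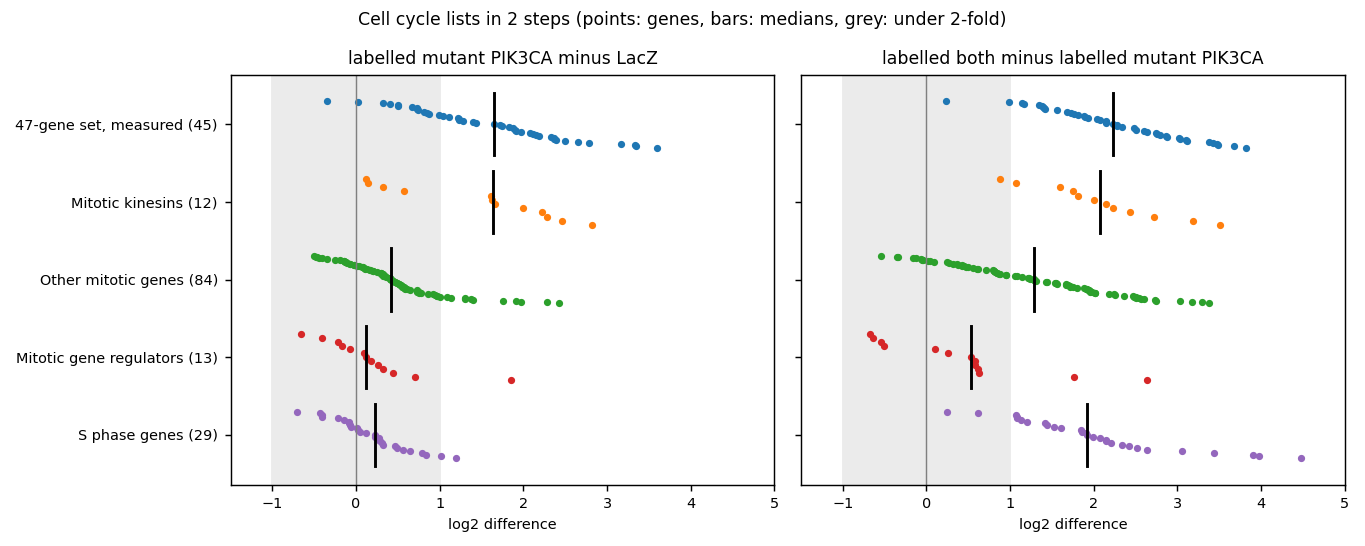
Log2 differences (x axis) of the genes of 5 lists (y axis, number measured in brackets) from the LacZ array to the PIK3CA-labelled array (left) and from there to the array labelled with both (right), with points for genes, bars for medians and grey for differences under 2-fold. On the left the 45 genes (median 1.65) and the kinesins (1.64) lie beyond the grey by their medians. The other mitotic genes (0.41), the regulators (0.12) and the S phase genes (0.22) lie inside it. On the right the 45 genes (2.23), kinesins (2.07), other mitotic genes (1.29) and S phase genes (1.92) lie beyond it as deposited, and the regulators (0.53) inside it. At this right-hand step 11 of the 45 genes turn below 0 under cyclic loess of the genes at 5 or more.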

How the data were processed

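RNA of 4 stably transfected MCF10A lines was measured on 1 Affymetrix array each. The authors deposited 1 log2 value for each probe set and array. The submitters' processing notes name RMA, a method that corrects background, scales arrays to each other and combines probes, and the oligo package. Their versions and the annotation's build were not given in the sources used here, and no header states the log base, which follows from RMA and the range of the values. The number of arrays limits the precision.

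Of 53617 probe sets, 23871 have 1 gene symbol, 1842 several and 27904 are unnamed here; RefSeq (GRCh38.p14) updated 90 symbols. A gene took its probe set with the highest mean, and no filter on low values was applied, since a filter would keep genes through the array where they are high. Differences of single arrays were counted from 2-fold, with no test. The genes and lists were chosen with earlier results of these data known. Named were all 45 genes, ERBB2, cell type markers and, from each further list, the 3 members with the highest size of difference between both and LacZ and the one with the smallest. Alternatives used limma 3.58.1 in R 4.3.3, and calculations Python 3.11.15 with pandas 2.3.3. The counting was tested on simulated data.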

Additional observations from a re-analysis of the deposited data

Results flagged for a closer look

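For 3 genes the Her2 label went with opposite differences without and with mutant PIK3CA, each at least 2-fold. TOP2A differed by -1.22 between the Her2-labelled and LacZ arrays and by 2.23 from the PIK3CA-labelled array to the array labelled with both. MKI67 differed by -1.21 and 1.81, and CDC20 by -1.29 and 1.14. These pairs of arrays share no array. The ERBB2 values go against the labels of the single-gene arrays. With those 2 labels exchanged, the same differences are 2.11 and 5.56 for TOP2A, 2.15 and 5.17 for MKI67, and 1.90 and 4.33 for CDC20, all of 1 sign. With 1 array per label, the difference between the pairs was not tested.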

How the results depend on the processing

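No paired analysis was possible because each group has 1 array and no replicate numbers. Of 2660 differences of these genes recomputed under the alternatives, 2453 moved by under 1.5-fold, 181 moved further with the same sign or without a call, and 26 called differences changed sign. Many of the 2453 could not move. They include 315 under the 1.5-fold threshold and 315 under the mean of all probe sets, as none of these genes had several. A further 287 and 224 were under the filters, which leave the values as they are. The counts stayed within 1.5 times under filters (5 or more on some array, or a mean of 3 or more), quantile or cyclic loess scaling of all genes, the mean of all probe sets, and values raised to the background level. A 1.5-fold threshold gave 9 genes higher and 10 lower for Her2 against LacZ, in place of 0 and 3.

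All 26 sign changes came with cyclic loess of only the 4381 genes at 5 or more on some array, chosen after seeing the data, which left 41 of the 45 genes. Among those 4381 genes, 118 had a mean of the LacZ array and the array labelled with both under 4, and 66.1% of these were at least 2-fold higher with both, against 12.5% of the other 4263; 16 of the 118 were mitotic genes of the set. The cause of the changes was not tested. For both against LacZ, 28 genes were higher and 1 lower (median 1.79), with MAD2L1 at -0.27, NUF2 at -0.74, SPC25 at -1.25, BIRC5 at -0.082, NCAPH at -0.64, ESCO2 at -0.30 and UBE2C at -0.11. For both against mutant PIK3CA, 16 were higher (median 0.77), with CCNB2 at -0.71, NEK2 at -0.15, BUB1 at -0.16, TTK at -0.76, NDC80 at -0.13, NUF2 at -0.49, SPC25 at -0.54, BIRC5 at -0.071, NCAPH at -0.62, ESCO2 at -0.25 and UBE2C at -0.17. For both against Her2, 28 were higher and 1 lower (median 2.09), with CENPI at -0.035, NUF2 at -0.16 and SPC25 at -1.26. Departure from additivity was 1 or more in 16 (median 0.61), with TTK at -0.93, CENPE at -0.20, NDC80 at -0.36, SPC25 at -0.55 and DLGAP5 at -0.28. Quantile scaling of the same genes, also chosen after seeing the data, gave 23 genes higher for mutant PIK3CA against Her2, in place of 35. The single array per label, the doubt about the labels and the low values on the LacZ array and the Her2-labelled array limit the precision of every difference.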
